A study of Arabidopsis thaliana with 10 samples.

Results

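The locus lnc-339 is a predicted long non-coding RNA (lncRNA) of Arabidopsis thaliana, 295 nt long and unspliced, on the plus strand of chromosome 5. It is 1 of 358 predicted lncRNA loci that the authors put in their level 1 class, of 978 predicted loci and 1362 loci with expression values in all, 384 of which were annotated already. It was picked by its locus number within level 1, because its values in the libraries of cold and salt stress were high. Those values are the RPKM (reads scaled to transcript length and library depth) in 9 libraries, so its levels and its differences between libraries are given as a description, with no test.

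The libraries were made from 12-day-old seedlings of the accession Col-0. RNA with a poly(A) tail was taken out first, and ribosomal RNA was then depleted, so that what was sequenced is called poly(A)- RNA; the reads are strand-specific, single-end and 100 nt long. An untreated control was taken at 3 h. Seedlings under cold (4 °C), heat (37 °C), salt (200 mM NaCl) or drought (300 mM mannitol, which withholds water by osmosis) were taken at 3 h and at 12 h, with 1 library for each condition. No control of 12 h was analysed here, so stress and the later time cannot be told apart in a 12 h library set against it. A further sample, total RNA of mixed tissues, was not analysed here. No coding gene has a value in the files, so neither seedling markers nor known stress genes could be checked against the labels. Salt at 12 h was the shallowest library, with 17.6 M mapped reads, and heat at 3 h the deepest, with 37.0 M. These depths were inferred from the RPKM values, as the number of reads that their scaling implies. Per library, 10399 to 22293 reads fell on the lncRNA loci.

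The gene around lnc-339 is AT5G57710, SUPPRESSOR OF MAX2 1 (SMAX1). SMAX1 is a nuclear protein related to the Clp ATPases. It represses the responses of seeds and seedlings to karrikins, the germination cues found in smoke, and to a related signal of the plant itself. When the receptor KAI2 binds its ligand, the F-box protein MAX2 marks SMAX1 for breakdown, which releases germination and the light responses of the young seedling. Its relatives SMXL6, SMXL7 and SMXL8 are the corresponding targets of strigolactone, the hormone that limits shoot branching. The 5′ untranslated region (5′ UTR) of a messenger RNA is the stretch between its start and the start codon.

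In the build of the files, TAIR10, lnc-339 spans chr5:23384412-23384706. In the RefSeq annotation of TAIR10.1, AT5G57710 runs from 23384255 to 23388465 on the same strand, 4211 nt with 4 exons and 1 mRNA model, and its coding part runs from 23384794 to 23388052 and encodes 990 residues. The coordinates of the 2 builds were compared through the annotated lncRNA loci: all 384 overlapped a gene of the same identifier, on the same chromosome and strand, and 203 had the same start and end. The locus lies wholly in the first exon and in the 5′ UTR, of which it covers 54.7% of 539 nt. It begins 157 bases after the start of the gene and ends 87 bases before the start codon. Since lnc-339 has the strand of its host, reads of the 5′ UTR of SMAX1 itself and reads of a separate transcript cannot be told apart, and every level below is the level of RNA from this stretch.

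**Figure D1:**
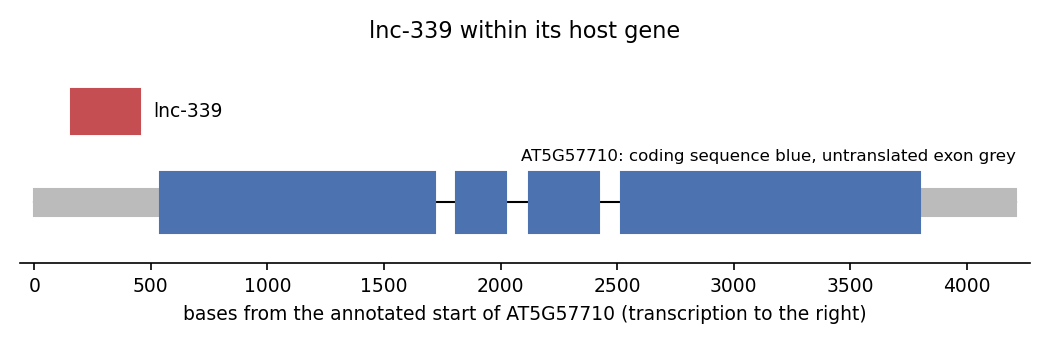
Map of AT5G57710 and lnc-339, drawn to scale, with the distance from the start of the gene in bases on the horizontal axis and the untranslated and coding parts of the exons as boxes. The locus (295 nt) sits within the first exon, between the start of the gene and the start codon.

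The sequence of lnc-339 is rich in T (42.7%) and poor in G (8.47%), with 27.5% A and 21.4% C. Its GC content of 29.8% is at percentile 8.59 of the 978 predicted loci, whose median is 36.9%. It holds 1 ATG, the only ATG in the whole 5′ UTR of the gene, which opens a reading frame of 21 codons that ends inside lnc-339. The minimum free energy of the fold predicted by RNAfold is -29.5 kcal/mol. All 196 windows of 100 nt, the read length, occur once in the nuclear chromosomes, so a read from the locus has no identical copy elsewhere in them. The organelle genomes were not searched.

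The region just before the gene is shown because it precedes both SMAX1 and the 5′ UTR that holds lnc-339, and because stress-response motifs could be looked for in it. It is the 250 bases before the annotated start of AT5G57710, chr5:23384005-23384254 of TAIR10.1 (RefSeq), plus strand, written 5′ to 3′. Capitals mark the motifs found.
AT5G57710 promoter: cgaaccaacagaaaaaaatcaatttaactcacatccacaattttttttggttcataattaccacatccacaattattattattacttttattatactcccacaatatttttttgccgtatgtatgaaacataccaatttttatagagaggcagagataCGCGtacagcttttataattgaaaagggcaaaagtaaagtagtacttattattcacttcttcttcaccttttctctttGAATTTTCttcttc

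Of 7 motifs searched on both strands, 2 occur in this window. The core of the sites of CAMTA factors, CGCG, occurs once, from base -92 counted back from the start of the gene, and is present in 10.1% of the 27443 windows of the same length before coding genes. A pair of heat shock element units, GAANNTTC, occurs once from base -14 and is present in 9.55% of the windows. The cold and drought motifs ACCGAC and GCCGAC, present in 4.70% and 2.56% of windows, are not in these letters. Nor are the core of the abscisic acid response element ACGTG (22.9% of windows), the G-box CACGTG (6.49%), which contains that core, or the evening element AAAATATCT (2.36%). A match is a description of the letters and no evidence of binding.

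In the control library lnc-339 stood at 1.61 RPKM, from 12 reads (95% exact Poisson interval 0.834 to 2.82 RPKM). Its highest level was 24.1 RPKM in cold at 3 h, from 234 reads (21.1 to 27.4). In cold at 12 h it stood at 7.03 RPKM, from 66 reads (5.44 to 8.94). Cold at 3 h thus gave the highest level of all 9 libraries. The intervals cover counting error only and say nothing of the spread between plants.

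In salt the level was 9.14 RPKM at 3 h, from 85 reads (7.30 to 11.3), and 13.7 RPKM at 12 h, from 71 reads in the shallowest library (10.7 to 17.3). In drought it was 3.90 RPKM at 3 h, from 30 reads (2.63 to 5.56), and 9.67 RPKM at 12 h, from 60 reads (7.38 to 12.5). In heat it was 1.37 RPKM at 3 h, from 15 reads (0.768 to 2.26), and 2.17 RPKM at 12 h, from 22 reads (1.36 to 3.29). The heat intervals and that of drought at 3 h overlap the interval of the control, while those of cold, of salt and of drought at 12 h lie wholly above it. In all, 595 reads fell on the locus. In such whole-seedling RNA, more cells with the transcript and more transcript per cell cannot be told apart.

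**Figure D2:**
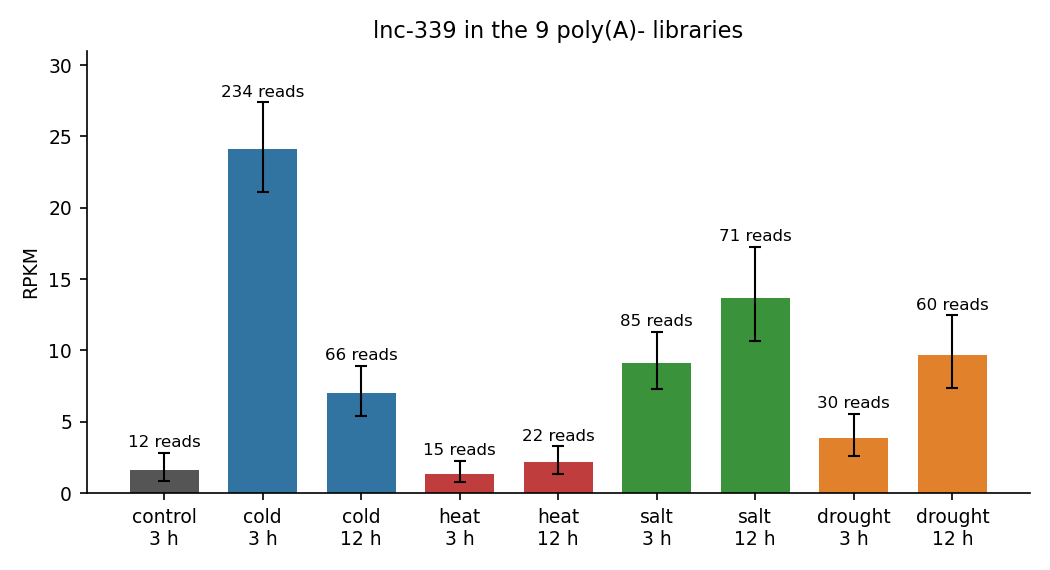
Level of lnc-339 in the 9 seedling libraries, in RPKM on an axis that starts at 0, with 1 bar for each library and error bars for the 95% exact Poisson interval of its reads. Cold at 3 h stands highest at 24.1 RPKM, and heat at 3 h lowest at 1.37 RPKM.

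Set among the other lncRNAs, lnc-339 ranked 43 of 1362 by RPKM in the control and 10 among the level 1 loci. In cold at 3 h it ranked 3 of all loci and first among the predicted ones. It took 20.4% of the 1149 reads on level 1 loci there (95% exact Clopper-Pearson interval 18.1 to 22.8), against 1.14% of 1056 in the control (0.589 to 1.98). In salt it ranked 8 and 7 of all loci at 3 h and 12 h and took 6.60% and 6.25% of the level 1 reads. In drought it ranked 25 and 14, and in heat 47 and 57.

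Against the control, the level was 14.9-fold higher in cold at 3 h (95% exact binomial interval of the ratio 8.38 to 29.3), a difference of 3.26 on log2(RPKM + 1) and rank 1 of the 1362 loci by that difference. In cold at 12 h it was 4.35-fold higher (2.33 to 8.85; rank 34). In salt it was 5.66-fold higher at 3 h (3.08 to 11.4; rank 7) and 8.47-fold higher at 12 h (4.56 to 17.2; rank 11). In drought at 12 h it was 5.99-fold higher (3.19 to 12.2; rank 29). These are the 5 of 8 stress libraries in which lnc-339 passed a 2-fold difference on log2(RPKM + 1), the rule for a call here; in none was it called lower. These ranks depend on the pseudocount: with 0.1 RPKM in place of 1 they became 10 (3 h) and 190 (12 h) under cold, 71 and 110 under salt, and 218 in drought at 12 h. The name under which the locus was chosen, raised by cold and salt, leaves out the call in drought at 12 h.

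In drought at 3 h the ratio was 2.41 (1.20 to 5.17), with a log2 difference of 0.90, short of a call. In heat the ratio was 0.850 at 3 h (0.371 to 1.99) and 1.34 at 12 h (0.637 to 2.98), and both intervals include 1. By the same rule, the share of all 1362 loci called higher at 3 h was 2.2% in cold, 1.17% in heat, 3.45% in salt and 3.23% in drought. At 12 h it was 5.73% in cold, 4.92% in heat, 7.64% in salt and 9.4% in drought. The share called lower at 3 h was 1.47% in cold, 1.32% in heat, 2.06% in salt and 1.62% in drought, and at 12 h it was 1.4%, 1.4%, 1.17% and 1.32% in the same order. The locus was chosen on these contrasts, so nothing is read from its calls against these shares.

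The libraries differ in their general level of lncRNA. Over the 59 loci with at least 5 reads in each library, the median log2 ratio to the control at 3 h was 0.41 in cold, 0.04 in heat, 0.14 in salt and 0.46 in drought. At 12 h it was 0.59, 0.39, 0.75 and 0.91 in the same order. Divided by that shift, the ratios of lnc-339 to the control became 11.25 and 2.90 in cold, 5.15 and 5.05 in salt, and 1.75 and 3.18 in drought. The ratios of heat became 0.824 and 1.03. After rescaling lnc-339 was called higher in 5 of the 8 stress libraries, as before, but the interval of drought at 3 h, 0.870 to 3.75, then included 1. The shift is taken over loci read in every library, so it cannot show the lower number of loci read in the control.

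The ratios of 12 h to 3 h do not use the control library. In cold the level at 12 h was 3.43-fold lower than at 3 h (2.60 to 4.57), a log2 difference of -1.64, rank 1360 of 1362; 1.03% of all loci were called lower in that contrast. In drought it was 2.48-fold higher at 12 h (1.58 to 3.99), and 1.82-fold after rescaling; 6.46% of loci were called higher there. In salt the ratio was 1.50 (1.08 to 2.08) as deposited and 0.980 after rescaling, so no direction is given for salt. In heat the ratio was 1.58 (0.784 to 3.28). Cold and drought thus showed opposite order in time, high early in cold and high late in drought. Length of stress and time of sampling cannot be told apart in these ratios. The locus was also chosen for its high values in cold and salt.

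At 3 h, cold stood 2.64-fold above salt (2.05 to 3.42), 6.18-fold above drought (4.22 to 9.37) and 17.6-fold above heat (10.4 to 31.9). Salt stood 2.35-fold above drought (1.53 to 3.68). At 12 h, salt stood 1.95-fold above cold (1.37 to 2.76) and 6.30-fold above heat (3.86 to 10.7), while drought and cold differed by a ratio of 1.38 whose interval includes 1 (0.954 to 1.98). The stress that stood highest was thus cold at 3 h and salt at 12 h, though the counts separated salt and drought at 12 h after rescaling (1.59, 1.11 to 2.28) and not as deposited (1.41, 0.989 to 2.03).

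In the order of all 9 levels, cold at 3 h came first, and the step down to salt at 12 h was 1.76-fold (1.34 to 2.33). From salt at 12 h through drought at 12 h and salt at 3 h to cold at 12 h, no neighbouring pair was separated beyond counting error as deposited, with ratios of 1.41, 1.06 and 1.30. This depends on the scaling. Divided by the library shift, salt at 12 h stood 1.59-fold above drought at 12 h (1.11 to 2.28) and salt at 3 h 1.78-fold above cold at 12 h (1.27 to 2.49). The ratio of drought at 12 h to salt at 3 h then turned to 0.618 (0.436 to 0.870), which puts salt at 3 h above it. Drought at 3 h was separated from cold at 12 h by 1.80-fold (1.16 to 2.88), and by 1.66-fold after rescaling (1.06 to 2.64). Scaled to the reads on lncRNA loci without the most read one, this step was 1.43-fold, with an interval that includes 1 (0.915 to 2.28). The step from drought at 3 h to heat at 12 h was 1.79-fold (1.00 to 3.27), at the edge of its interval, and 1.71-fold after rescaling (0.952 to 3.11). Heat at 12 h, the control and heat at 3 h were not separated from each other, with ratios of 1.34 and 1.18.

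Other predicted loci that lie in a 5′ UTR on the strand of the gene are the nearest in kind. There are 53 with at least 50% of their length in such a 5′ UTR, lnc-339 included. Among the other 52, 51 had at least 1 read, and the highest value of any in any library was 11.7 RPKM. In cold at 3 h, 5 of the 52 were called higher (9.62%) and none lower, with a median log2 difference of 0.18; of the 1361 loci other than lnc-339, 2.13% were called higher there. In cold at 12 h 13 were called higher (25%, against 5.66% of all others), with a median of 0.21. Salt gave 11 calls of a higher level at 3 h (21.2% against 3.38%) and 12 at 12 h (23.1% against 7.57%), with medians of 0.20 and 0.30. Heat gave 3 (5.77% against 1.18%) and 9 (17.3% against 4.92%), with medians of 0 and 0.25. Drought gave 5 (9.62% against 3.23%) and 14 (26.9% against 9.33%), with medians of 0 and 0.51. Of the 1361 others 283 had a read in the control, and of the 52 loci 19 did. With 1 RPKM added, a locus that stays under 1 RPKM in a stress is never called higher. At 3 h, 8 of the 52 reached 1 RPKM in cold, 7 in heat, 16 in salt and 6 in drought. Of the 1361, 80, 61, 90 and 80 did, in that order. At 12 h, 14, 11, 14 and 15 of the 52 did, against 119, 111, 147 and 173 of the 1361. The part of these differences in level in the counts of calls was not tested. The median over all other loci was 0 in all 8 contrasts, where many loci have no read at all.

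**Figure D3:**
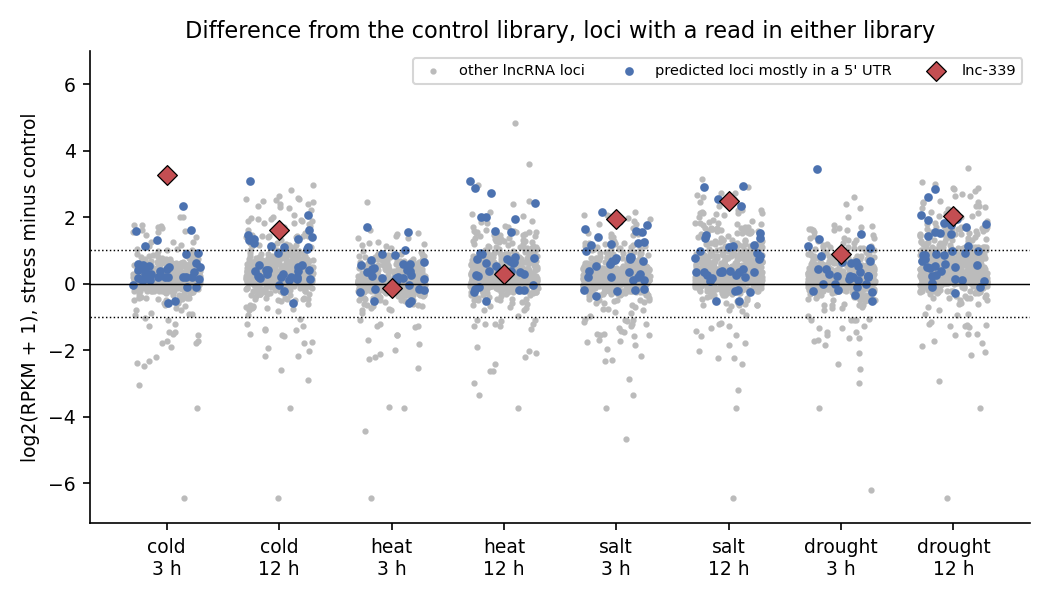
Difference from the control on log2(RPKM + 1) in each of the 8 stress libraries, for loci with a read in the stress or the control library: blue points are predicted loci mostly in a 5′ UTR on the same strand, grey points other loci, and the red diamond is lnc-339. Points are spread sideways for display, and dotted lines mark the 2-fold call. The diamond is the highest point in cold at 3 h (3.26) and lies near 0 in heat (-0.14 and 0.28).

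The authors class 248 predicted loci as cis, lnc-339 among them. By the annotation, 41 of these lie mostly in a 5′ UTR of the same strand, 4 in coding sequence, 6 in a 3′ UTR, 17 overlap a coding gene of their strand with less than 50% in any of these parts, and 180 overlap none on their own strand. Among the 248, 5 were called higher in both cold and salt at 3 h, and among all 1362 loci 10 were. Both counts include lnc-339, which was chosen for its high values in cold and salt, so nothing is read from them. Besides lnc-339 the 5 are level 1 lnc-53, lnc-249 and lnc-322 and level 2 lnc-488, and 3 of the 4 lie in a 5′ UTR of their host.

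Level 1 lnc-53, in the 5′ UTR of AT1G51570, had 4 reads in the control library. At 3 h and then 12 h, cold gave 55 and 42 reads, salt 36 and 34, drought 19 and 25, and heat 20 and 85. Level 1 lnc-249, in the 5′ UTR of AT5G05560, which encodes a subunit of the anaphase-promoting complex that drives exit from mitosis, had 2 control reads. Its counts, in the same order of times, were 23 and 19 under cold, 21 and 36 under salt, 16 and 40 under drought, and 12 and 47 under heat. Level 1 lnc-322, opposite AT5G48770, had no control read, 20 and 18 reads under cold, 31 and 29 under salt, 19 and 52 under drought, and 7 and 50 under heat. All 3 were thus high in heat at 12 h, where lnc-339 was near its control level. The ratio of heat at 12 h to the control was 15.6 for lnc-53 (5.87 to 58.5) and 17.2 for lnc-249 (4.51 to 146.4), against 1.34 for lnc-339.

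Level 2 lnc-488, in the 5′ UTR of AT4G36260 (STY2, a zinc-finger factor of style and leaf development), had no control read, 22 and 16 reads under cold, 25 and 11 under salt, 5 and 6 under drought, and 6 and 7 under heat. Against a floor of 3 reads in the control, it was at least 5.61-fold higher in cold at 3 h and at least 6.66-fold higher in salt at 3 h. Its count was higher in cold and salt than in heat, as for lnc-339, but both loci were picked for high values in cold and salt. Nothing is therefore read from that likeness. Level 2 lnc-488 did not share the high level of lnc-339 in drought at 12 h.

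The loci whose profile over the 9 libraries is most like that of lnc-339 were ranked by Pearson's r of log2(RPKM + 1) among the 377 others with at least 20 reads, where the median r was 0.24. The first is AT3G51238 (r = 0.91, Spearman's rho = 0.83), a lncRNA opposite AT3G51240, the gene of flavanone 3-hydroxylase, an enzyme of flavonoid synthesis. Of its 46 reads 1 was from the control, 17 and 6 from cold at 3 h and 12 h, 10 and 3 from salt, 2 and 6 from drought, and 1 and 0 from heat. Its highest level was 0.309 RPKM, in cold at 3 h. As AT3G51238 is an annotated locus, its values and its place here rest on the re-matching of annotated values described below. Level 1 lnc-259, opposite AT5G11970, followed with r = 0.90 (rho = 0.93) from 31 reads. Level 1 lnc-93 came next with r = 0.88 (rho = 0.95) from 21 reads, and then level 1 lnc-281 with r = 0.87 (rho = 0.93). The fifth was level 2 lnc-488 (r = 0.85, rho = 0.83).

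The best covered of these 5 is lnc-281, an intergenic locus with 129 reads. Of these, 3 were from the control, 29 and 15 from cold, 27 and 13 from salt, 12 and 14 from drought, and 0 and 16 from heat. As for lnc-339, the count was higher in cold at 3 h than at 12 h and, in heat at 3 h, near the few reads of the control. In heat at 12 h its count was 16 against 3 in the control, a ratio of 3.91 (1.12 to 20.9). For lnc-339 it was 22 against 12, a ratio of 1.34 (0.637 to 2.98). These intervals overlap, so no difference between the 2 loci is read from them. Without the cold 3 h library, 1 of these 5 was still among the first 5, so the choice of the other 4 rests on that library, although r stayed between 0.83 and 0.94 for all 5. The 9 points share their libraries and depth, and likeness of profile is all that is measured here.

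**Figure D4:**
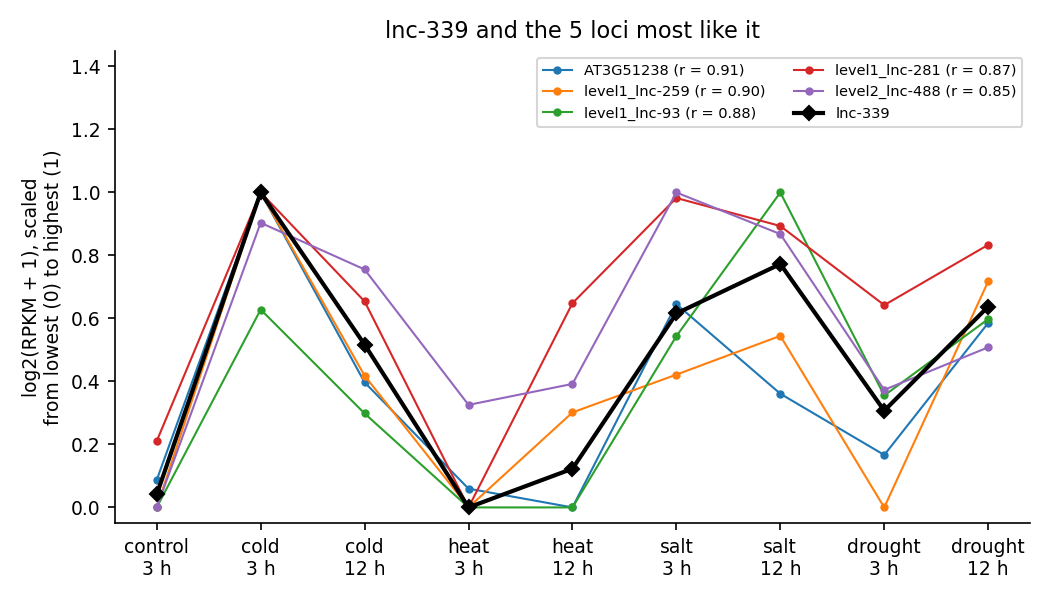
Profile of lnc-339 (black) and of the 5 loci most like it over the 9 libraries, with log2(RPKM + 1) of each locus scaled from its own lowest value (0) to its highest (1). The lines of lnc-339, AT3G51238, lnc-259 and lnc-281 reach their top in cold at 3 h, and all 6 lines stand lower in the control and in heat at 3 h than in cold at 3 h.

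The deposited chromatin scores belong to the place of the locus, not to the libraries, with plants and unit not given in the sources used here. H3K4me3, a mark of the first part of transcribed genes, scored 6.94 for lnc-339. The median of the 248 cis loci was 0.934, and 18 of them scored higher, while the median of the 53 loci in a 5′ UTR was 2.68, and 12 of these scored higher. H3K36me3, a mark of transcribed gene bodies, scored 1.97 against medians of 0.467 and 1.40. The score of H3 itself was low, 0.725 against 1.35 in cis loci, of which 231 scored higher. That same score is held by 26 of the 978 predicted loci, 8 of them cis, lnc-339 included.

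The other marks of open chromatin did not stand as high. H3K4me2 scored 1.96, against medians of 1.70 in cis loci and 2.73 in the loci in a 5′ UTR, of which 36 of 53 scored higher. H3K18Ac scored 2.13 against 1.92 and 2.04. H3K9Ac scored 1.41 against 1.92 and 2.44, and 141 of the 248 cis loci and 37 of the 53 scored higher. H3K36me2 scored 1.15, the median of both sets. The values of H3K9Ac and H3K36me2 are shared by many loci, 153 and 145 of the predicted ones. The marks of silenced chromatin H3K27me1, H3K27me3 and H3K9me2 and the methylation of cytosine in the CpG, CHG and CHH contexts were all 0 for lnc-339. For H3K27me3, laid down by Polycomb, 35 of the 248 cis loci were at 0. A score of 0 is the usual one for H3K27me1 and H3K9me2, with 178 and 210 of the 248 at 0. For CpG, CHG and CHH methylation 91, 127 and 62 were.

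**Figure D5:**
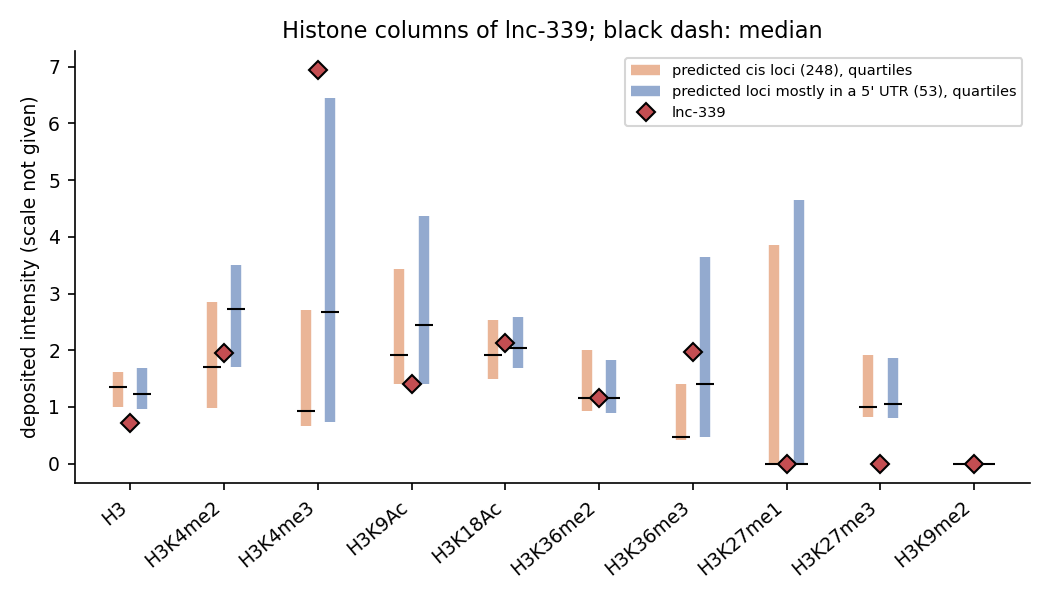
Deposited chromatin scores of lnc-339 (red diamonds), of the 248 predicted cis loci (orange) and of the 53 predicted loci mostly in a 5′ UTR on the same strand (blue), where bars run from the lower to the upper quartile and black dashes are medians; lnc-339 is counted in both sets. The score of H3K4me3, 6.94, lies above both upper quartiles, and that of H3, 0.725, below both lower quartiles.

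The DNA of lnc-339 had a deposited blastn bit score of 149 for conservation, against a median of 129 in cis loci, 57 of which scored higher, and 122 in level 1. The median of the 53 loci in a 5′ UTR was 140, and 20 of these scored higher. The deposited randfold p-value, low where an RNA folds more stably than its shuffled sequences, was 0.810. Its median was 0.905 in cis loci and 0.857 in the loci in a 5′ UTR. The structure conservation index was 0, as for 800 of the 978 predicted loci. All 978 are nonetheless classed as conserved in structure, which the column's note ties to an index above 0.5, so the class was not used. The authors mark lnc-339 as conserved in structure and matching a stress-related structure, as they do 81 predicted loci, 34 of them in level 1 and 31 in cis. Of these 81, 51 have an index of 0, as lnc-339 does, so this mark has the same limit as the class. The authors list no transcription factor binding for lnc-339, as for 913 of the 978.

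The authors' polyadenylation class of lnc-339 is bimorphic, found with and without a poly(A) tail, as for 175 predicted loci, 86 of them in level 1. The authors' deposited list of stress-responsive predicted lncRNAs holds 217 transcripts, 159 of the class with a tail and 58 of the class without, and no bimorphic one, and lnc-339 is not on it. Per the file headers, that list was made with DEGseq, at p-values up to 0.05 and folds from 2 upwards.

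The authors' deposited table of gene ontology terms ties lncRNAs to sets of coding genes, on data not given in the sources used here. In the authors' deposited table lnc-339 stands under 118 of 338 terms, 91 of them biological processes; the median listed lncRNA stands under 39, and 33 of 185 stand under more terms than lnc-339. The authors' deposited table lists it under response to cold (false discovery rate of the term 2.9e-18, 28 lncRNAs), response to salt stress (3.4e-12, 33) and response to osmotic stress (1.7e-12, 34). In the authors' deposited table it also stands under response to temperature stimulus and response to red or far red light. These stress and light terms were chosen by hand. Among its other terms, the authors' deposited table lists lnc-339 under defense response (3.4e-29, 46 lncRNAs), photosynthesis (1.5e-10, 26) and response to jasmonic acid stimulus (0.049, 26). It is not listed in the authors' deposited table under response to heat (1.1e-10, 18 lncRNAs) or response to water deprivation (0.0012, 10). Nor does the authors' deposited table list it under response to oxidative stress (1.5e-10, 31), response to water (0.00064, 11) or response to high light intensity (0.004, 3). AT5G57710 itself is among the coding genes of 3 terms in the authors' deposited table, and lnc-339 is listed under protein binding and macromolecule metabolic process of these, not under protein metabolic process.

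The other annotated gene within 5000 bp of AT5G57710 is AT5G57720, 1280 bp away on the minus strand, which encodes a protein of the B3 family of DNA-binding proteins. Within 5000 bp of AT5G57710 the catalogue's level 3 class, for which no expression values were used here, holds locus-4181 (505 bp away), locus-4180 (3555 bp) and locus-4182 (4136 bp). The catalogue uses the name lnc-339 a second time, for a level 2 locus on chromosome 3 (14336065 to 14336591), which is another locus and had no read in any library.

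Of 19 names of karrikin and strigolactone genes, 18 matched an annotated gene and 3 have a catalogue locus with values within 1000 bp, SMAX1 being one of them. Close to HY5, a factor that promotes seedling responses to light, lies level 1 lnc-257, in the 5′ UTR of AT5G11250, with 3 reads in cold at 12 h, 2 in drought at 12 h and none in the other 7 libraries. Close to MAX3, an enzyme of strigolactone synthesis, lies AT2G44995, with no control read, 5 and 9 reads under cold, 5 and 3 under salt, 1 and 0 under heat and 1 and 1 under drought. Neither reached 10 reads in any library, against 12 to 234 for lnc-339. The values of AT2G44995, an annotated locus, rest on the re-matching of annotated values described below. Near KAI2, D14 and MAX2, the receptors and F-box protein of both pathways, no catalogue locus lies within that distance.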

How the data were processed

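Per the file headers, the deposited expression values are RPKM made by the authors, with a counting rule not given in the sources used here. Per the submitters' processing notes, the build was TAIR10 and the tools were Bowtie 0.12.9, Cufflinks and TopHat2 2.0.8. The deposited values of transcripts are scores (chromatin, conservation and structure), randfold p-values and, in the ontology table, p-values and false discovery rates of the authors. 24 columns of per-sample values were not used. Whole reads were recovered from RPKM times exon length, within 0.02 reads, and library depths from the value of 1 read. All 2790 non-zero predicted values came out whole; annotated values were first re-matched to loci sorted by the number that follows G in the identifier, a choice made after seeing the data that made 1922 of 1922 whole. Deposited starts count from 0 and are printed from 1. Calls are 2-fold on log2(RPKM + 1), a scale that understates changes of low loci. With 1 library per condition no test was made, and intervals and floors (3 reads) cover counting error only. The named loci are lnc-339 and its host, the 5 with the highest r, neighbours within 5000 bp, cis loci called higher in cold and salt at 3 h, and loci within 1000 bp of a karrikin and strigolactone list. The locus, rules and list were chosen with earlier results of these data known. Alternatives were other scalings, pseudocounts, filters and likeness measures. Scripts were tested on simulated data. Python 3.11.15, numpy 2.4.6, pandas 2.3.3, scipy 1.17.1, matplotlib 3.10.9 and RNAfold 2.7.2 were used.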

Additional observations from a re-analysis of the deposited data

Results flagged for a closer look

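The heat libraries lie on opposite sides of the control for lnc-339, at a ratio of 0.850 at 3 h (15 reads) and of 1.34 at 12 h (22 reads), against 12 reads in the control. The difference between the times was not tested, with 1 library each, and the intervals of both ratios include 1.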

How the results depend on the processing

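No paired analysis was possible because each condition has 1 library and no replicate number, and for the same reason no replicate could be left out. Of 116 alternative values of the ratios of lnc-339, 107 kept their direction and stayed within their counting interval. Those with 0.1 or 1 RPKM added to both levels could not turn a ratio, since this only draws it towards 1. Every value that turned or left its interval came from the other alternatives, which scaled the libraries anew. One of these divided by the median ratio (rescaled), and the other scaled to the reads on lncRNA loci other than AT1G15405, the most read. In that order, drought at 12 h to the control became 3.18 and 3.05, salt at 12 h to 3 h turned to 0.980 and 0.873, and drought at 12 h to salt at 3 h, not separated as deposited, turned to 0.618 and 0.529. By lncRNA reads, cold at 12 h to 3 h became 0.180, cold at 3 h to salt at 12 h 3.01, and salt at 3 h to cold at 12 h 2.12. Each of these 2 scalings changed, for 6 of 29 ratios, whether the interval included 1. Of 72 alternative counts of called loci 41 stayed within 1.5 times and 31 did not. With 0.1 RPKM added in place of 1, loci called higher numbered 237 (3 h) and 385 (12 h) under cold, 176 and 347 under heat, 282 and 417 under salt, and 273 and 474 under drought. Loci called lower then numbered 72 and 52 under cold, 79 and 65 under heat, 81 and 54 under salt, and 71 and 50 under drought; 118 were lower in cold at 12 h than at 3 h and 375 higher in drought at 12 h than at 3 h. Rescaled, 56 were higher in salt at 12 h, 25 in drought at 3 h and 62 in drought at 12 h. Among predicted loci alone, loci lower at 3 h and 12 h numbered 11 and 9 under cold, 10 and 9 under heat, 14 and 9 under salt, and 13 and 10 under drought; 28 were higher in drought at 3 h and 8 lower in cold at 12 h than at 3 h. With 0.1 RPKM the rank of the increase of lnc-339 became 10 and 190 in cold, 71 and 110 in salt, 217 and 218 in drought, and 461 in heat at 12 h. It became 480 in heat at 12 h when rescaled, 522 in heat at 3 h among loci with at least 10 reads and 32 in drought at 3 h among predicted loci. Of the 5 most similar loci, 3 stayed among the first 5 by Spearman's rho, 3 with 0.1 RPKM, 4 with centred values and 1 without the cold 3 h library. Depth limits the low levels most, since the control value rests on 12 reads.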
